A study of Rattus norvegicus with 14 samples.

Results

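The calpain genes and calpastatin were followed across 14 arrays of rat IEC-6 cells, a non-transformed cell line derived from the epithelium of the rat small bowel. The members were all probe sets, the groups of array probes that read 1 transcript, whose annotation gave the symbol Capn1, Capn2, Capn5, Capn7, Capn8, Capn10, Capn15, Capns1 or Cast. That gave 14 of the 31099 probe sets of the array, for 9 of 14218 named genes. Cells were kept for 72 h in DMSO, the solvent (4 arrays), or with 100 µM indomethacin, which blocks both cyclooxygenases (2 arrays), 100 µM NS-398, which prefers cyclooxygenase-2 (4 arrays), or 1 µM SC-560, which prefers cyclooxygenase-1 (4 arrays). All groups were the same line, with no genetic change named. Per the series' design text, indomethacin and NS-398 slow the migration of these cells while SC-560 does not, and the groups are compared along that division. Cultures were pooled and several chips hybridised per biological sample, so that p-values reflect how far arrays of a group lay apart, which may be technical only.

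Array names carried a digit with or without the suffix b, which the sources used here do not explain. The 6 arrays without the suffix (2 each of DMSO, NS-398 and SC-560) and the 8 with it (2 of each of the 4 groups) are called the set without suffix and set b. Both indomethacin arrays lay in set b. Values are signals on a linear scale, which the authors scaled to the same target on every array, and the arrays' median signals lay between 97.8 and 118. A probe set was tested where its signal reached 100 on at least 2 arrays, and is said to be called, or to rise or fall, at an adjusted p under 0.05 in limma, a linear model over all probe sets tested with a term for the set. The sets stood apart: 59.0% of the 17515 probe sets tested differed between them. Cdx2, a transcription factor of intestinal epithelium, read 55.0 to 124 without the suffix and 3072 to 5314 in set b, while Cdh1, the epithelial cadherin, read 7680 to 8412 and 2637 to 3671. Of 13 epithelial markers on the array, 2, Cdh1 and Krt8 (2670 to 6893), reached a signal of 100 on every array. On no array did 6 reach it, among them Epcam, Krt18 and Muc2. Of 12 fibroblast and smooth muscle markers 8 reached 100 on every array and 2, Pdgfrb and Thy1, on none. In the sums by group that follow, DMSO, NS-398 and SC-560 pool both sets while indomethacin lies in set b alone. These sums therefore mix drug and set. Summed over the list, epithelial markers read 11678 to 13716 on the DMSO arrays, 16198 to 16323 with indomethacin, 11255 to 14333 with NS-398 and 11815 to 14670 with SC-560. The sums of the fibroblast and smooth muscle markers were 72854 to 94398, 90857 to 94296, 68456 to 96807 and 75864 to 105979 in the same order. Of the 10 of these tested, 0 were called higher and 2 lower with indomethacin, and 2 each way with NS-398. Of all probe sets 3.27% and 13.5% were called. On a log2 scale over all arrays, Tagln fell by 1.65 with indomethacin and 1.04 with NS-398. Dcn fell by 0.59 and rose by 0.80 in that order. With NS-398 Des rose by 0.61 and Col1a2 fell by 0.24. Krt8, the 1 of 7 epithelial markers called, rose by 0.23 with indomethacin and fell by 0.30 with NS-398. Of 6 blood and endothelial markers on the array, Ptprc, Cd3e and Pecam1 stayed under 100 throughout, Cd68 reached 100 on 2 arrays and Kdr on 5, and Cd14, a receptor known from monocytes, read 2871 to 4088 on the 14 arrays and was higher by 0.27 ± 0.07 on a log2 scale with indomethacin (limma adjusted p = 0.0497). These 6 summed to 3296 to 4012 with DMSO, 4007 to 4239 with indomethacin, 3862 to 4351 with NS-398 and 3103 to 3873 with SC-560. For the beta-actin control probes, the signal near the 3' end over that near the 5' end, which tracks RNA integrity, was 1.498 to 1.639 in the set without suffix and 1.22 to 1.34 in set b. For the Gapdh control probes the ranges overlapped, at 0.902 to 0.990 and 0.955 to 1.002. The part of these differences in the results below was not tested, and the effects of NS-398 on the calpain genes and Cast are therefore given within each set.

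Calpains are cysteine proteases of the cytosol that are switched on by calcium and cut their substrates at few sites, changing rather than destroying them. The conventional enzymes pair a large catalytic subunit, Capn1 or Capn2, with the small regulatory subunit Capns1, and calpastatin, the product of Cast, is their dedicated inhibitor. In migrating cells calpains cut talin, focal adhesion kinase and other proteins of adhesions, which lets the rear of the cell let go of the substrate. Levels here are of RNA and carry no information on the calcium-dependent activity of the enzymes.

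The 250 bases before the start of Capn2, Capns1 and Cast are shown because these are the 3 members called for NS-398 within a set of arrays. They are from RefSeq on the rat assembly GRCr8, run 5′ to 3′ on the gene's own strand, and end at the base before the start of the gene. All 3 genes lie on the minus strand, with windows at chr13:96732626-96732875, chr1:94582222-94582471 and chr2:5816987-5817236. Capitals mark matches, on either strand, to the GC box GGGCGG and the CCAAT box.
Capn2: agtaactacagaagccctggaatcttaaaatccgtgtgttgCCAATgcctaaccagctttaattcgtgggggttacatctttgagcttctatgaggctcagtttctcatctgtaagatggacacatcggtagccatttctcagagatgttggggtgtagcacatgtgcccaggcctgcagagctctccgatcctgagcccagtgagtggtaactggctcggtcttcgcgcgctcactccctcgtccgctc
Capns1: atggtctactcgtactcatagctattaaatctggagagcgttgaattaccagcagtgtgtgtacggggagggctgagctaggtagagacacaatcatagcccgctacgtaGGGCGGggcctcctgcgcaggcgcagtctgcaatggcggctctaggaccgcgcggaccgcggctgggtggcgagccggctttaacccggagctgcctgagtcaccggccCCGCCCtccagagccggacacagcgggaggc
Cast: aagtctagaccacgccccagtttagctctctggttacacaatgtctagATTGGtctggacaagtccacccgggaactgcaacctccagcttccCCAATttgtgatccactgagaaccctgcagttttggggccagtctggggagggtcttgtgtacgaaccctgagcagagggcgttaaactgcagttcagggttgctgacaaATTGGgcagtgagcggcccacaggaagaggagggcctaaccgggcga
The Capn2 window held 1 CCAAT box, 209 bases before the start. The Capns1 window held 2 GC boxes, 140 and 31 bases before it, and the Cast window held 3 CCAAT boxes, 202, 157 and 47 bases before it. No marked match overlapped another. Among 33469 promoter windows of the same length in the table, 30.5% held a GC box and 34.0% a CCAAT box. TATAAA, present in 12.9% of windows, and TGACNNNGC, the core letters of the antioxidant response element, present in 10.1%, had no match in the 3 windows. The share of G and C was 52.0% for Capn2, 63.2% for Capns1 and 55.6% for Cast, against a median of 51.2% over all windows. A match describes the letters only. Entries for 7 of the 9 members were found in the table, and Capn2 and Capn8 were close neighbours, with 51611 bases between their windows on chromosome 13.

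Of the 14 probe sets, 13 passed this limit on low signals and were tested. The exception was 1 of 2 probe sets of Capn8, 1387292_s_at, which read 4.24 to 55.0. Its other probe set, 1387991_at, reached 100 only on the 4 SC-560 arrays and so was tested only through the group in which it was high. The remaining 12 reached 100 on all arrays. Within a probe set the highest array exceeded the lowest by a factor between 1.27 (Capn7) and 1.98 (Cast 1373466_at), Capn8 1387991_at aside (2.28). The other calpain genes on the array, Capn3, Capn6, Capn9 and Capn13, read under 100 on every array, with a highest value of 77.4 for Capn9.

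**Figure D1:**
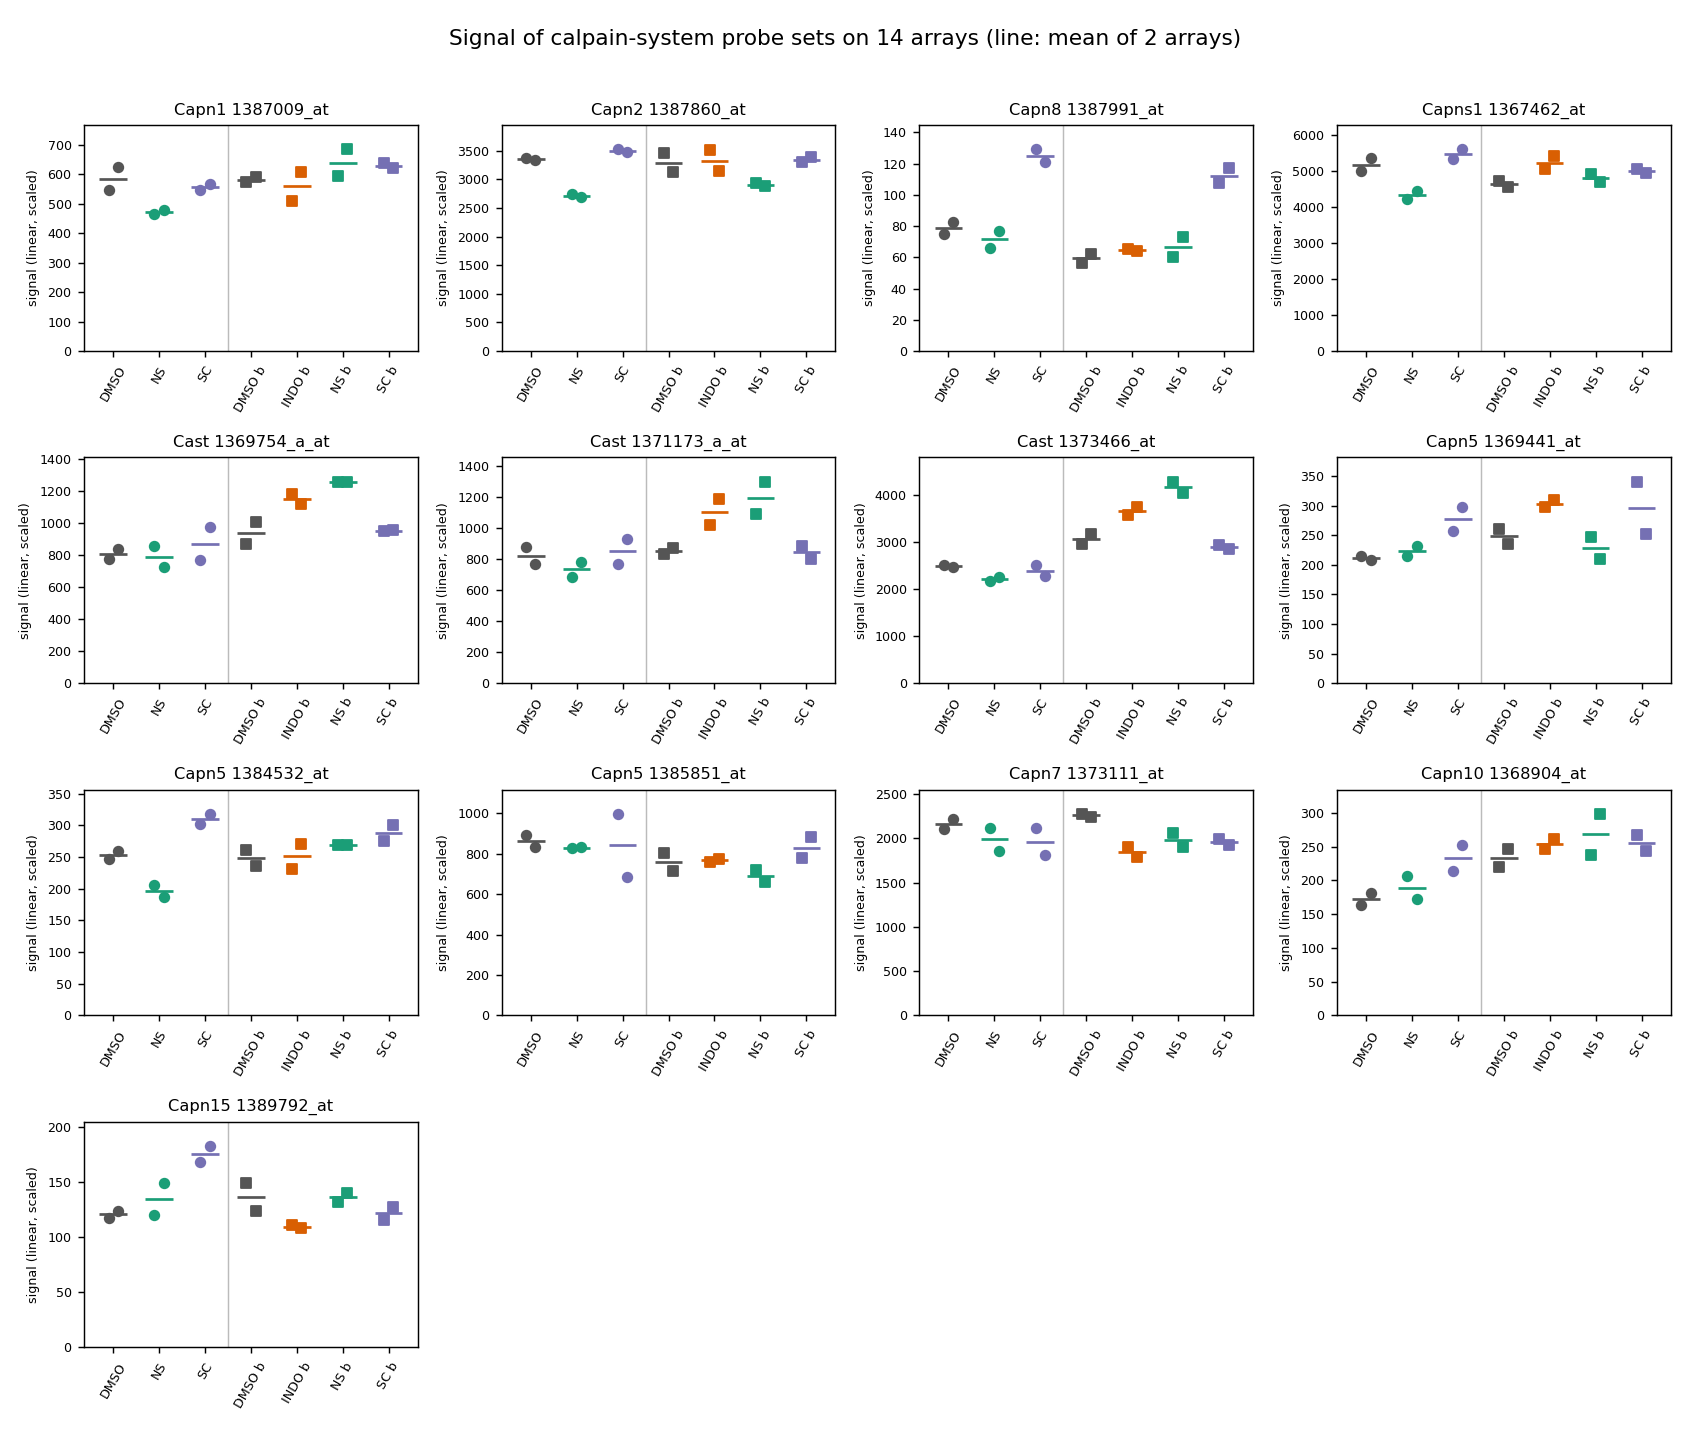
Signal (linear, scaled by the authors, axis from 0) of the 13 tested calpain-system probe sets, 1 panel each; circles are arrays of the set without suffix, squares arrays of set b, and lines the mean of the 2 arrays. Both NS-398 positions lie below the DMSO positions for Capn2, the Cast means of indomethacin and NS-398 lie above that of DMSO only to the right of the grey line, and Capn8 is highest in SC-560.

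Capn2, the catalytic subunit of m-calpain, fell with NS-398 and was the single member called for a drug across all arrays. Capn2 (1387860_at) read 3378, 3342, 3457 and 3130 on DMSO arrays 1, 2, 1b and 2b, against 2739, 2697, 2929 and 2884 on NS-398 arrays with the same names. All 4 NS-398 arrays were below all 4 DMSO arrays, an order shown by 3.72% of the probe sets tested. The change in log2(signal + 50), the scale of all log2 changes here, was -0.24 ± 0.05 (standard error; limma adjusted p = 0.00696). Among all probe sets 13.5% were called for NS-398 and 6.39% were called lower, so that 1 of 13 members is near the background. The Capn2 call held in all 14 fits that left out a single array (adjusted p 0.00714 to 0.0297) and was lost without the label set term (adjusted p = 0.131).

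Within the sets, Capn2 fell by 0.30 ± 0.06 on the log2 scale in the set without suffix (limma adjusted p = 0.012). In set b the change was -0.18 ± 0.07 and was not called (adjusted p = 0.125). The difference between the sets was 0.13 ± 0.09 (adjusted p = 0.462), and both NS-398 arrays lay below both DMSO arrays in each set, as they did for 28.3% of all probe sets in the set without suffix and for 28.5% in set b. The call in the set without suffix rested on 4 arrays and was lost when DMSO array 1 or 2 or NS-398 array 1 or 2 was left out, at adjusted p-values of 0.0841, 0.0749, 0.0794 and 0.115.

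Capn2 was not called for the other drugs. It read 3509 and 3148 on indomethacin arrays 1b and 2b and 3524, 3476, 3310 and 3385 on SC-560 arrays 1, 2, 1b and 2b. The indomethacin and SC-560 readings overlapped those of DMSO in set b. The log2 change was 0.02 ± 0.07 for indomethacin within set b, with a 95% interval from -0.14 to 0.17 (limma adjusted p = 0.935), and 0.04 ± 0.05 for SC-560 over all arrays, with an interval from -0.07 to 0.15 (adjusted p = 0.921). Within the sets the SC-560 value was 0.06 ± 0.06 without the suffix (adjusted p = 0.954) against 0.025 ± 0.071 in set b (adjusted p = 0.936). Indomethacin and NS-398, given at the same dose and time, differed in Capn2 by 0.24 ± 0.07 over all arrays (adjusted p = 0.0536) and by 0.19 ± 0.07 in set b, where both were run side by side (interval 0.04 to 0.34, adjusted p = 0.116); neither difference was called. The average of the drugs that slow migration, less the average of SC-560 and DMSO, was -0.14 ± 0.04 for Capn2 (adjusted p = 0.0507). In that combined contrast 0 of 13 members were called over all arrays, while 10.1% of all probe sets were called. An unadjusted limma p under 0.05 was found for 4 of 13 members, Capn8 1387991_at among them, and for 24.9% of all probe sets.

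The named genes whose levels followed Capn2 most closely, by Pearson's r over the 14 arrays after removal of each set's mean, were Bud13 (0.955), Bloc1s1 (0.939) and Calhm2 (0.936). Arrays of 1 treatment share these correlations. With NS-398 these genes fell by 0.26, 0.34 and 0.33 on the log2 scale. They were chosen for their likeness to Capn2 on these same arrays, so their fall is no separate result.

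Capns1, the small subunit that Capn1 and Capn2 share, was lower with NS-398 in the set without suffix alone. Capns1 (1367462_at) read 4983 and 5358 on DMSO arrays 1 and 2 and 4223 and 4446 on NS-398 arrays 1 and 2. In set b the DMSO readings (4722 and 4562) and the NS-398 readings (4898 and 4692) overlapped, while indomethacin read 5035 and 5401, above both DMSO arrays. Without the suffix Capns1 fell by 0.25 ± 0.07 with NS-398 (limma adjusted p = 0.0318). The value in set b was 0.05 ± 0.06 (adjusted p = 0.652). The difference between these effects was 0.30 ± 0.08 and was not called (adjusted p = 0.0533). The call without the suffix was lost when DMSO array 1 or 2 or NS-398 array 1 or 2 was left out, at adjusted p-values of 0.0689, 0.225, 0.213 and 0.12. In that set Capn2 and Capns1 were 2 of 13 members called, both lower, against 9.48% of all probe sets called and 4.56% called lower. The order seen with indomethacin in set b was shared by 26.5% of all probe sets, with a value for Capns1 of 0.17 ± 0.06 that was not called (adjusted p = 0.105).

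Capn1, the catalytic subunit of µ-calpain, was not called for any drug. Capn1 (1387009_at) read 547 and 623 on DMSO arrays 1 and 2 and 465 and 477 on NS-398 arrays 1 and 2. In set b the order was turned, at 574 and 588 for DMSO and 594 and 684 for NS-398. The values were -0.28 ± 0.11 without the suffix (limma adjusted p = 0.135) against 0.12 ± 0.11 in set b (adjusted p = 0.524), with a difference of 0.41 ± 0.15 (adjusted p = 0.124). Over both sets together the value was -0.08 ± 0.09 (adjusted p = 0.625). Without the suffix 10 of the 13 member probe sets, several of which read the same gene, lay below 0 with NS-398. So did 8877 of all 17515 probe sets. The members' median log2 change was -0.12 against -0.004 over all probe sets, and in set b it was 0.09 against -0.009.

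**Figure D2:**
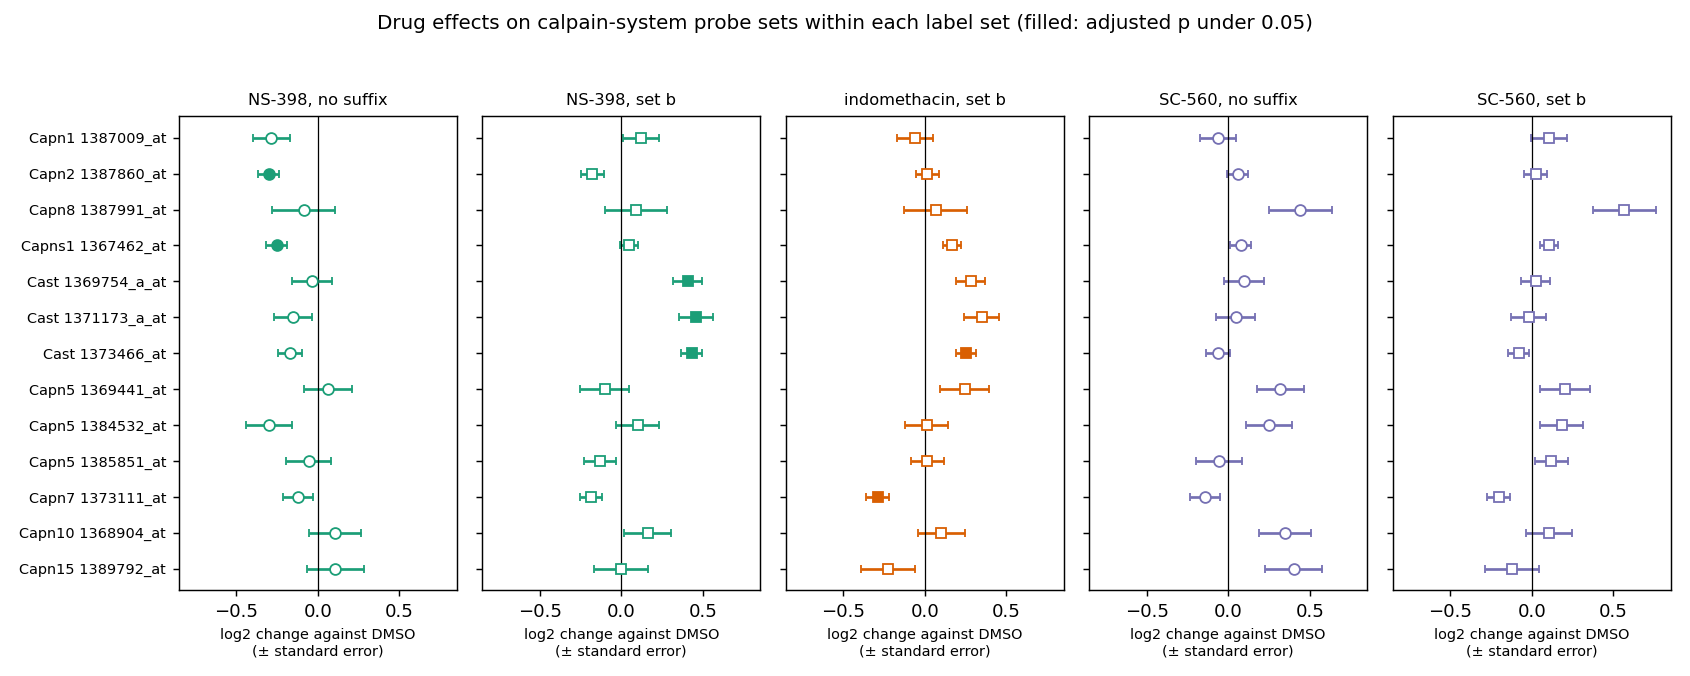
Log2 change against DMSO (horizontal axis, ± standard error from limma within the set) of each tested probe set, for NS-398, indomethacin and SC-560 in each label set; filled symbols had an adjusted p under 0.05. With NS-398 the filled symbols are Capn2 and Capns1 below 0 without the suffix and the 3 Cast probe sets above 0 in set b; no SC-560 symbol is filled.

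Cast, the gene of the inhibitor calpastatin, rose with NS-398 in set b on each of its 3 probe sets. Cast 1373466_at read 2967 and 3174 on DMSO arrays 1b and 2b, 4286 and 4035 on NS-398 arrays 1b and 2b, 3578 and 3755 on indomethacin arrays 1b and 2b and 2943 and 2862 on SC-560 arrays 1b and 2b. Cast 1369754_a_at read 869 and 1007, 1259 and 1255, 1179 and 1118, and 951 and 954 on the same arrays. Cast 1371173_a_at read 834 and 871, 1090 and 1298, 1021 and 1183, and 886 and 798. On all 3 probe sets each NS-398 and each indomethacin array was above each DMSO and each SC-560 array of set b. How many of all probe sets shared this order was not counted, so nothing is read from it. Against DMSO alone, both arrays were above both DMSO arrays of the set in 27.1% of all probe sets for NS-398 and in 26.5% for indomethacin.

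The rise with NS-398 in set b was 0.43 ± 0.06 for Cast 1373466_at (limma adjusted p = 0.000976), 0.41 ± 0.09 for 1369754_a_at (adjusted p = 0.00984) and 0.46 ± 0.11 for 1371173_a_at (adjusted p = 0.0144). The Cast probe sets were the 3 of 13 members called in that comparison, where 14.2% of all probe sets were called and 7.62% were called higher. They read 1 gene and are not independent of each other. Cast 1373466_at kept its call without any 1 of the 8 arrays, 1369754_a_at lost it without DMSO array 1b (adjusted p = 0.0998), and 1371173_a_at lost it without DMSO array 1b (0.0927) or NS-398 array 2b (0.11), and in a fit without the intensity trend (0.0644).

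In the set without suffix the Cast probe sets did not rise with NS-398. Cast 1373466_at read 2513 and 2475 on DMSO arrays 1 and 2 and 2165 and 2252 on NS-398 arrays 1 and 2, with both NS-398 readings lower. The readings of 1369754_a_at were 774 and 840 for DMSO and 854 and 724 for NS-398, and those of 1371173_a_at were 874 and 765 for DMSO and 685 and 783 for NS-398; on both probe sets the groups overlapped. The changes were -0.17 ± 0.07 (limma adjusted p = 0.172), -0.03 ± 0.12 (0.898) and -0.15 ± 0.12 (0.474).

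Whether the effect of NS-398 on Cast differed between the sets was tested as an interaction on the 12 arrays without indomethacin. The effect in set b exceeded that without the suffix by 0.60 ± 0.10 for 1373466_at (limma adjusted p = 0.00237), by 0.61 ± 0.16 for 1371173_a_at (adjusted p = 0.0427) and by 0.44 ± 0.16 for 1369754_a_at, which was not called (adjusted p = 0.127). These were 2 of 13 members called, against 5.47% of all probe sets called and 2.92% called with a higher effect in set b. For 1373466_at the call held without any 1 of the 12 arrays and with the replicate label as a block. For 1371173_a_at it held in 3 of 12 such fits and had an adjusted p of 0.0622 with the block, and it was lost without DMSO array 1 (0.149), 2 (0.0552), 1b (0.126) or 2b (0.0808), NS-398 array 1 (0.147), 2 (0.0651) or 2b (0.145), or SC-560 array 1b (0.0545) or 2b (0.0543). Over both sets together no Cast probe set was called for NS-398, with changes of 0.13 to 0.19.

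**Figure D3:**
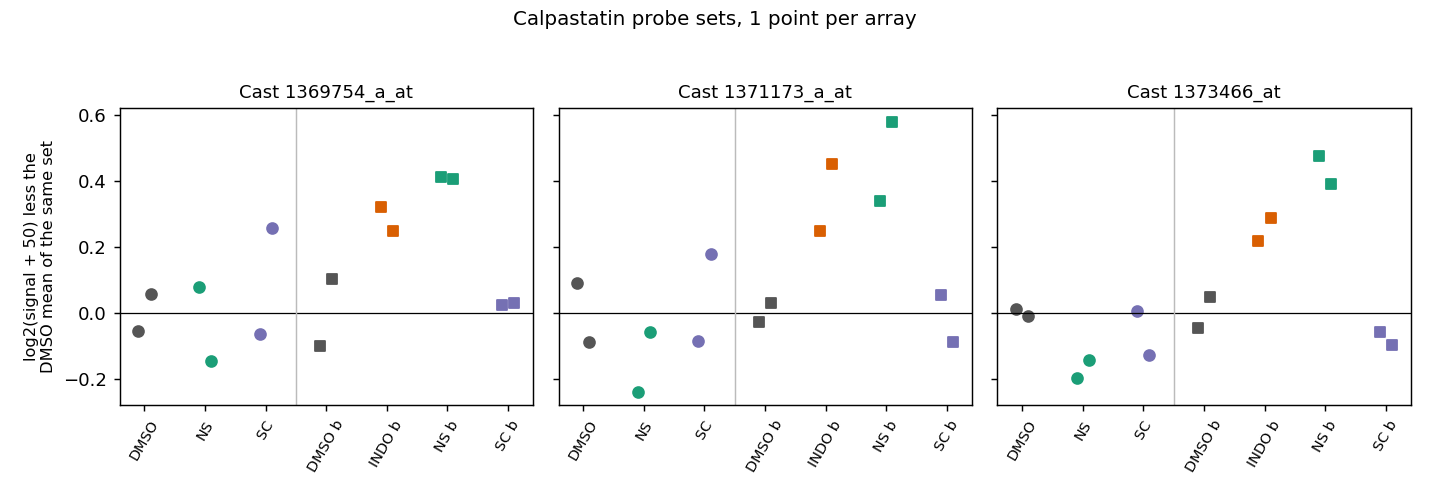
Log2(signal + 50) of each array less the mean of the 2 DMSO arrays of its own set (vertical axis) for the 3 Cast probe sets; circles are the set without suffix, squares set b. In set b the indomethacin and NS-398 squares all lie above the DMSO and SC-560 squares, an order not counted over all probe sets. The NS-398 circles lie around or below 0.

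With indomethacin, Cast was called higher in set b on 1 of its 3 probe sets. The values were 0.25 ± 0.06 for 1373466_at, which was called (limma adjusted p = 0.0355), 0.35 ± 0.11 for 1371173_a_at (adjusted p = 0.0746) and 0.28 ± 0.09 for 1369754_a_at (adjusted p = 0.0798). The comparison shares its DMSO arrays with that of NS-398. The call on 1373466_at was lost without DMSO array 1b (0.239) or 2b (0.0595), indomethacin array 1b (0.0876) or 2b (0.195), or SC-560 array 1b (0.0508) or 2b (0.0501). Indomethacin less NS-398 was -0.18 ± 0.06 on 1373466_at (interval -0.32 to -0.04, adjusted p = 0.0964), -0.11 on 1371173_a_at and -0.12 on 1369754_a_at. None of these was called, and 0 of 13 members were called in that comparison, against 9.31% of all probe sets. An unadjusted limma p under 0.05 was found there for 3 of 13 members and for 24.3% of all probe sets. In the combined contrast within set b, the drugs that slow migration exceeded SC-560 and DMSO by 0.38 ± 0.04 for 1373466_at (adjusted p = 0.000219), 0.41 ± 0.08 for 1371173_a_at (0.00374) and 0.33 ± 0.06 for 1369754_a_at (0.0043). Each held without any 1 of the 8 arrays, and they were the 3 members called, with 15.0% of all probe sets called and 7.77% called higher.

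The level of Cast relative to Capn2 was set against its DMSO mean on each array, as a description chosen after the values were seen and with no test. With 1373466_at for Cast, the log2 ratio of Cast over Capn2 was higher by 0.64 and 0.58 on NS-398 arrays 1b and 2b, by 0.13 and 0.35 on the indomethacin arrays and by 0.09 and 0.17 on NS-398 arrays 1 and 2. On the 4 SC-560 arrays it lay between -0.18 and -0.06. With this probe set only NS-398 and indomethacin arrays, among the treated arrays, were above their DMSO mean. DMSO arrays 1b and 2b themselves lay at -0.12 and 0.12, close to the lower indomethacin value. Cast over Capns1, formed in the same way and not tested, shifted less on the NS-398 and indomethacin arrays. It was 0.40 and 0.37 on NS-398 arrays 1b and 2b, 0.10 and 0.07 with indomethacin, and 0.09 and 0.07 on NS-398 arrays 1 and 2. DMSO arrays 2b and 1 lay at 0.07 and 0.06, close to the lower of these values. Neither ratio was formed with the other Cast probe sets, so these values are given for 1373466_at alone.

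SC-560 was followed by no called change of a calpain gene, but its arrays were the highest for Capn8, a calpain known from the stomach and gut lining. Capn8 1387991_at read 129, 121, 107 and 117 on SC-560 arrays 1, 2, 1b and 2b, against 75.0, 82.9, 56.7 and 62.1 for DMSO. NS-398 arrays read 66.2, 77.0, 60.1 and 73.1 and indomethacin arrays 65.4 and 63.8. All 4 SC-560 arrays were above all 10 others, as for 0.114% of the probe sets tested. Nothing is read from this order or from the fitted change, since the probe set passed the limit on low signals only through these arrays. The change was 0.50 ± 0.12 against DMSO (limma adjusted p = 0.414), at 0.44 in the set without suffix and at 0.57 in set b. For SC-560 no probe set of the whole array was called (0% of 17515). An unadjusted limma p under 0.05 was found for 4 of 13 members, Capn8 1387991_at among them, and for 1263 probe sets (7.21%). As Capn8 was tested only through its SC-560 arrays, nothing is read from that count. The call on Capn8 was made only in a fit without the intensity trend (adjusted p = 0.0375). The second Capn8 probe set was under 100 on every array, and the dose of SC-560 was lower than those of the other drugs.

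Of the other 12 member probe sets tested, 10 lay above 0 with SC-560, as did 9203 of all 17515 probe sets. Cast 1373466_at and Capn7 lay below 0. Several of the 12 read the same gene, Capn5 or Cast, so nothing is read from the count. Centring each array on its median signal lowers all SC-560 changes, with the median over all probe sets moving from 0.006 to -0.11. Capn7 and Cast 1373466_at were then called lower within set b (-0.38, limma adjusted p = 0.0231, and -0.26, adjusted p = 0.0386). In that fit 1535 of the 17515 probe sets were called lower and 36 higher, against 0 and 3 without centring, so that the shift touched probe sets in general.

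Capn7, a calpain without the calcium-binding domain of the conventional enzymes that works with the membrane-remodelling ESCRT machinery, was called lower with indomethacin in set b. Capn7 (1373111_at) read 2277 and 2243 on DMSO arrays 1b and 2b, 1898 and 1789 with indomethacin, 2060 and 1905 with NS-398 and 1991 and 1925 with SC-560. No treated array of the set reached its DMSO readings. The share of all probe sets with this joint order was not counted, so nothing is read from it. Taken drug by drug, both arrays lay below both DMSO arrays in 26.7% of all probe sets for indomethacin, 28.5% for NS-398 and 19.7% for SC-560. In the set without suffix DMSO read 2100 and 2221, and NS-398 (2117 and 1860) and SC-560 (2112 and 1810) overlapped it. The change with indomethacin was -0.29 ± 0.07 in set b (limma adjusted p = 0.0326) and -0.27 ± 0.08 over all arrays, where it was not called (adjusted p = 0.0827). Over all arrays 0 of 13 members were called for indomethacin, where 3.27% of all probe sets were called. There, 2 members and 16.7% of all probe sets had an unadjusted limma p under 0.05. Capn7 and Cast 1373466_at were 2 of 13 members called for indomethacin in set b, with 6.70% of all probe sets called. With each array centred on its median, the calls for indomethacin in set b were 24.4% higher in place of 54.0%. The call on Capn7 was lost without DMSO array 1b (0.178) or 2b (0.1) or indomethacin array 1b (0.0774) or 2b (0.189). For NS-398 and SC-560 in set b the changes were -0.19 ± 0.07 (adjusted p = 0.102) and -0.20 ± 0.07 (0.343).

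Capn5, a calpain with a C2-type tail in place of the calcium-binding domain, had 3 probe sets that did not move together. Probe set 1369441_at read 208 to 341 over the arrays, 1384532_at 187 to 318 and 1385851_at 660 to 999. In the set without suffix, their values with NS-398 were 0.06 ± 0.15, -0.30 ± 0.14 and -0.06 ± 0.14, and those in set b were -0.10 ± 0.15, 0.10 ± 0.13 and -0.13 ± 0.10. With indomethacin in set b the first had a value of 0.24 ± 0.15 and the others of 0.01 and 0.02. With SC-560 the values over all arrays were 0.26 ± 0.10, 0.22 ± 0.11 and 0.03 ± 0.10; within the sets they were 0.32, 0.25 and -0.06 without the suffix against 0.20, 0.18 and 0.12 in set b. None of these was called in limma (adjusted p 0.215 to 0.986), and the sign differed between probe sets with NS-398 in both sets.

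Capn10, known as a candidate gene of type 2 diabetes, and Capn15, a calpain with zinc fingers, were dim. Capn10 (1368904_at) read 163 to 299 and Capn15 (1389792_at) 108 to 183. Neither was called for a drug in limma. The largest changes were 0.35 ± 0.16 for Capn10 and 0.40 ± 0.17 for Capn15 with SC-560 without the suffix, and Capn15 went the other way in set b (-0.12 ± 0.16; difference -0.52 ± 0.23, adjusted p = 0.812). The effect of SC-560 by set was called for 0 of 13 members and for 0.0171% of all probe sets. Its unadjusted limma p was under 0.05 for 1 of 13 members and for 5.93% of all probe sets.

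Between the sets themselves 4 members differed, all higher in set b, against 59.0% of all probe sets called and 31.0% called higher. Cast 1373466_at was higher by 0.49 ± 0.08 (limma adjusted p = 5.3e-05) and 1369754_a_at by 0.33 ± 0.08 (adjusted p = 0.00317), while 1371173_a_at, at 0.24 ± 0.10, was not called (adjusted p = 0.0502). Capn10 was higher by 0.29 ± 0.09 (adjusted p = 0.00853; 0.0599 with each array centred on its median). Capn1 was higher by 0.19 ± 0.07 (adjusted p = 0.0407), a call that held in 5 of 14 fits with 1 array left out. Centring on the median moved the share of higher calls between the sets from 52.5% to 38.7%, and Capns1 (-0.15, adjusted p = 0.0215) and Capn5 1385851_at (-0.24, adjusted p = 0.0175) were then called lower. Capn2 differed by 0.00 ± 0.04 between the sets (interval -0.09 to 0.09), while Cdx2 and Cdh1 differed between the sets as given above.

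Genes of the pathway around calpain were taken from lists. Of 28 calpain substrates at adhesions and in the cytoskeleton 26 were measured. Over all arrays, with NS-398, 2 were called higher and 5 lower, against 778 higher and 696 lower of 9840 named genes, with a median of -0.07 against -0.003. Within the sets the counts were 1 higher and 7 lower without the suffix (542 and 562 of all named genes) and 4 higher and 4 lower in set b (902 and 689). Itgb3 (higher) and Tln2 (lower) were called in both. Talin 2 (Tln2), which links integrins to actin, fell by 0.51, focal adhesion kinase (Ptk2) by 0.30 and its relative Ptk2b by 0.40 on the log2 scale. The integrin subunits Itgb3 and Itgb4 rose by 0.68 and 0.31. With indomethacin, Itgb4 rose by 0.77 and Ezr, a linker of membrane and actin, fell by 0.32. Ezr was also among the 5 called lower with NS-398 over all arrays (-0.17 ± 0.05, limma adjusted p = 0.0236). In the combined contrast 2 of the 26 were called higher and 3 lower, against 547 and 549 of 9840 named genes. Itgb4 (0.46 ± 0.08, limma adjusted p = 0.000897) and Ezr (-0.265 ± 0.037, adjusted p = 0.000232) were among them. With SC-560, where no probe set was called at all, none of the 26 was. Indomethacin and NS-398 differed in limma in Tln2 (0.75 ± 0.12 higher with indomethacin, adjusted p = 0.0015), Itgb4 (0.46 ± 0.12 higher, adjusted p = 0.0337) and Itgb3 (-0.94 ± 0.15, adjusted p = 0.00134). An unadjusted limma p under 0.05 was found there for 3 of the 13 calpain and Cast probe sets and for 20.2% of all. Called in this comparison were 0 of the 13 and 5.45% of all probe sets. Centred on the median, the higher share of these calls was 26.2% in place of 38.3%.

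Of 14 measured genes of calcium release, entry and removal, which set the signal that calpains read, 1 was called for NS-398 over all arrays. This was Itpr1, a calcium release channel of the endoplasmic reticulum, which fell (-0.30 ± 0.07, limma adjusted p = 0.00931). Within the sets Itpr1 was called without the suffix (-0.43 ± 0.07, adjusted p = 0.00238) and not in set b. Without the suffix 2 of the 14 were called lower, against 562 of 9840 named genes. In set b 1 was, Atp2b1 (-0.33 ± 0.07, adjusted p = 0.00734), against 689. None was called for indomethacin or SC-560 against DMSO, and Atp2b1 was higher with indomethacin than with NS-398 (0.31 ± 0.08, adjusted p = 0.0393). Of 10 caspases and caspase inhibitors 1 was called with NS-398, Casp12, lower by 0.24 ± 0.07 over all arrays (limma adjusted p = 0.0353). Within the sets Casp12 was called in set b (-0.36 ± 0.09, adjusted p = 0.0153) and not without the suffix. Among all 9840 named genes 778 were called higher and 696 lower with NS-398 over all arrays. The counts of 1 of 14 and 1 of 10 are near that background.

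The lysosomal cysteine proteases and their inhibitors, the cystatins, are another cysteine protease system of the cell, and 9 of 12 listed were measured. Like that of Cast, their NS-398 effect was tested for a difference between the sets. The effect in set b exceeded that without the suffix in all 9, and in 5171 of the 9840 named genes. The median difference was 0.50 against 0.02 over all named genes. Of the 9, 5 were called, all higher in set b, against 381 called higher and 286 lower of the 9840 named genes. The inhibitor Cst3 had -0.33 ± 0.06 in the set without suffix against 0.28 ± 0.05 in set b (difference 0.61 ± 0.08, limma adjusted p = 0.000409). The protease Ctsl had -0.12 ± 0.06 and 0.42 ± 0.05 (difference 0.54 ± 0.07, adjusted p = 0.00064), and Lgmn, legumain, had -0.22 ± 0.08 and 0.46 ± 0.07 (difference 0.68 ± 0.11, adjusted p = 0.00188). Cstb and Ctsb were the others called. In set b indomethacin raised Ctsl (0.29 ± 0.05) and lowered Cst3 (-0.23 ± 0.05), so that Cst3 was 0.51 ± 0.05 lower with indomethacin than with NS-398 there (adjusted p = 0.00012).

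**Figure D4:**
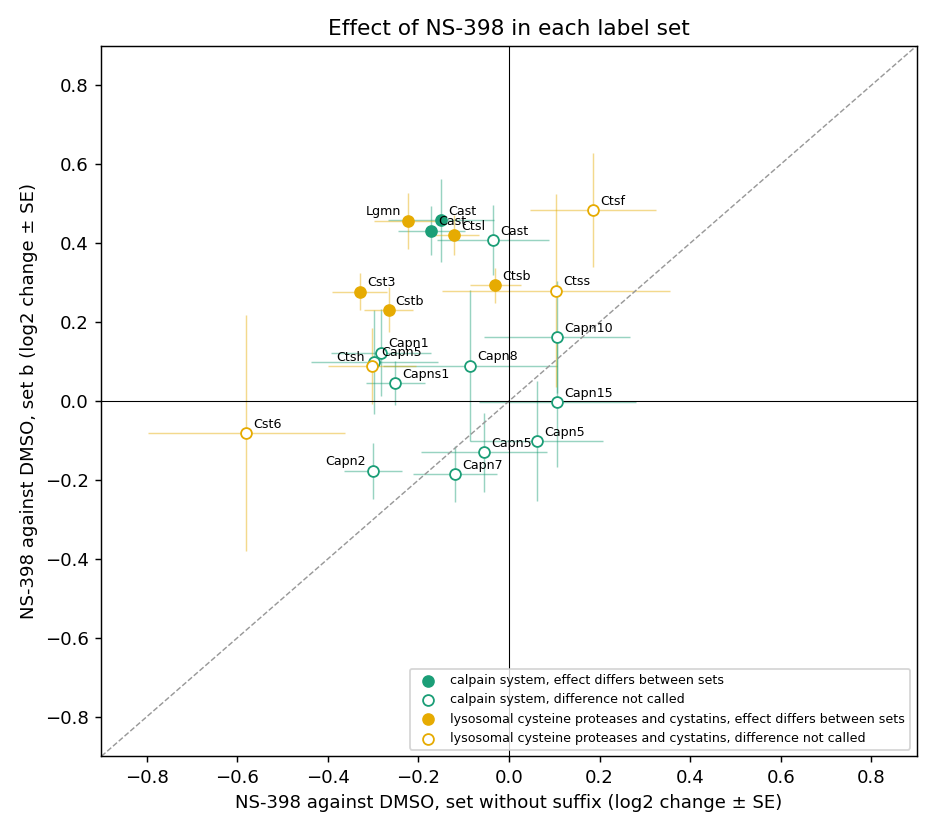
Log2 change with NS-398 against DMSO in the set without suffix (horizontal axis) and in set b (vertical axis), ± standard error, for the calpain-system probe sets and the 9 lysosomal cysteine protease and cystatin genes; the dashed line marks equal effects and filled points had an interaction adjusted p under 0.05. Of the 3 Cast points 2 are filled and all lie above the line with Cst3, Cstb, Ctsb, Ctsl and Lgmn, whereas Capn2 and Capn7 lie below 0 on both axes.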

How the data were processed

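The deposited values were linear signal intensities for 31099 probe sets on each of 14 one-colour Affymetrix arrays, which the authors scaled over all probe sets to a target of 500, per the labels. The sources used here do not name the summarising software. Names came from the platform annotation, updated by gene identifier through RefSeq (GRCr8). Signals were transformed as log2(signal + 50). Probe sets reaching 100 on at least 2 arrays, control probe sets aside, were tested (17515). The fit in limma 3.58.1 (R 4.3.3) had 4 group means and a label set term, with an intensity trend, and was repeated within each set. Benjamini-Hochberg adjustment ran over all probe sets tested, and a call is an adjusted p under 0.05. The script was tested on simulated data. The number of arrays limits the precision.

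The members and lists were chosen with earlier results of these data known, and the study's authors have drawn calpains from these arrays, so a direction here is not independent evidence. The genes named were all member probe sets, up to 3 called members per direction of each list and comparison (each gene read by its brightest probe set on average), and the 3 genes most like Capn2. Alternatives were other scalings, pseudocounts, filters, blocks, no trend, each set alone and each array left out. The within-set results were recomputed under these alternatives after the data were seen. Arrays sharing a label correlated between -0.08 and 0.06 once group and set means were removed (18 pairs), so labels paired arrays no further than the set.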

Additional observations from a re-analysis of the deposited data

Results flagged for a closer look

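On Cast 1369754_a_at, SC-560 array 1 stood away from the other 3 SC-560 arrays, with a signal of 769 against 951 to 974. The gap was 0.886 of the group's range. It was 1 such array among 42 groups of 4 looked at, and chance alone gives about 1 in 20.

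The effect of NS-398 on Cast differed between the label sets on 2 of its 3 probe sets. It was higher in set b by 0.61 on 1371173_a_at and by 0.60 on 1373466_at, as a test of the difference itself in limma (adjusted p = 0.0427 and 0.00237). Cdx2 and other markers also differed between the sets, and their part in this was not tested.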

How the results depend on the processing

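Of the single-probe-set results, 3636 kept their side of the threshold under an alternative, 33 gained a call and 58 lost one. None that was called in either fit changed direction. Changes of direction among results not called in either fit were not counted apart and are within the 3636. Counts of the 13 tested calpain-system probe sets called moved as follows, and the cause was not tested. For indomethacin, 0 became 2 in set b alone. For NS-398, 1 became 0 without the label set term, 3 in set b alone and 2 in the set without suffix. For SC-560, 0 became 1 without the intensity trend. For the combined contrast, the drugs that slow migration against SC-560 and DMSO, 0 became 1 with quantile normalization, with a filter of 200 on 4 arrays and without the trend, 3 in set b alone, and 0 to 1 with 1 array left out. For indomethacin against NS-398, 0 became 1 with the filter of 200 on 4 arrays. For the NS-398 effect by set, 2 became 1 with median centring, no filter, no trend or the replicate block, 3 with the filter of 200 on 4 arrays, where Capns1 gained a call (0.30, limma adjusted p = 0.0439), and 1 to 3 with 1 array left out. The replicate block changed no other call. Within the set without suffix, the 2 calls for NS-398 became 1 with no filter, 0 without the trend and 0 to 2 with 1 array left out. Within set b, the 2 calls for indomethacin became 1 with median centring, 0 with no filter, 0 without the trend and 0 to 2 with 1 array left out; the 3 calls for NS-398 became 2 without the trend and 1 to 3 with 1 array left out, 1 of them without DMSO array 1b; and the 0 calls for SC-560 became 2, Capn7 and Cast 1373466_at, both lower, with median centring. Capn8, near the background, is limited by its low signal, and groups of 2 arrays per set limit the rest.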
